A study of Mus musculus with 9 samples.

Results

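The choroid (CH) was compared with the photoreceptors (PR), the layers on either side of the retinal pigment epithelium (RPE), on 3 CH arrays and 3 PR arrays out of 9 dual-colour Agilent mouse arrays. The arrays were chosen by their labelled tissue alone. By the labels all came from female C57BL/6 mice aged 6 months, within 2 weeks, while the study's methods name the J strain and a somewhat younger age. No treatment or engineered allele is named, and each sample was cut by laser from a separate whole eye. The amplified tissue RNA carried the dye Cy5 and was set against Cy3 labelled RNA of the mouse RPE and choroid, which served as the common reference on every array with the dyes never swapped. The other 3 arrays, of the RPE, entered the fit and are given beside the CH and PR where they help to place a gene. The choroid was cut after the RPE had been taken off the same section, so a choroid sample holds what lay behind the RPE and whatever the cut left on it.

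The choroid is the vascular coat behind the retina. It holds arteries, veins and a dense capillary bed, with pericytes and smooth muscle, fibroblasts in a collagen stroma, pigmented melanocytes, immune cells and nerve fibres with their Schwann cells. Photoreceptors are the light sensing neurons of the outer retina, rods and cones, each with an outer segment of stacked discs, a connecting cilium and a ribbon synapse. The outer retina has no vessels in the mouse and is fed from the choroid across the RPE. The comparison therefore sets a connective, vascular and immune tissue against a layer made almost wholly of 1 class of neuron.

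Values are log2 ratios of the tissue RNA to the reference after background correction and loess normalization, and a difference is the CH mean minus the PR mean, so that a value above 0 lies higher in the CH. A gene was taken at its brightest probe and called when its fold change (FC) was above 2.5 and its adjusted p-value below 0.01 (limma, Benjamini-Hochberg over all 39429 probes). On the CH and PR arrays, between 65.8% and 71.9% of spots were well above background in the tissue channel, and the median Cy5 signal was between 617 and 1140. The log ratios correlated at between 0.878 and 0.934 among CH arrays, at between 0.942 and 0.979 among PR arrays and at between 0.087 and 0.175 across the tissues. Only slide 3 carried both tissues (CH 2 and PR 2), while CH 1 and CH 3 lay on slide 2 and PR 1 and PR 3 on slide 1. The p-values rest on the spread between the 3 eyes of each tissue, pooled over the CH, PR and RPE and moderated across probes. Because the slides are largely split by tissue, slide differences can also enter the contrast itself. Other handling followed the tissue as well. By the study's methods, photoreceptors were cut from thicker sections than the choroid and identified with a Cresyl Violet stain. RNA integrity ranged somewhat lower in the choroid than in the photoreceptors. In dissected tissue, fewer cells of a type and less RNA per cell cannot be told apart.

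Of 31709 genes, 4022 (12.7%) were higher in the CH and 1936 (6.11%) were higher in the PR. The choroidal genes also had the wider range of differences. Their median FC was 5.34, with 981 genes above an FC of 10 and 59 above 50. The photoreceptor genes had a median FC of 3.53, with 95 genes above 10 and 0 above 50. On slide 3, CH 2 and PR 2 could be compared without a change of slide. They are among the arrays that made the calls, and since no called gene overlapped, their direction was fixed. Their FC was above 2.5 for 3755 of the 4015 choroidal genes measured on both and for 1688 of the 1934 photoreceptor genes. In the log ratio that the scanner software computed, the PR count rose to 3242 genes and the CH count was 4173, so that choroidal genes made up 56.3% of all calls in place of 67.5%. Every called gene had its 3 arrays of the higher tissue above the 3 of the lower, but so had many that were not called: 28.6% of all genes had the CH arrays on top and 33.8% the PR arrays.

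**Figure D1:**
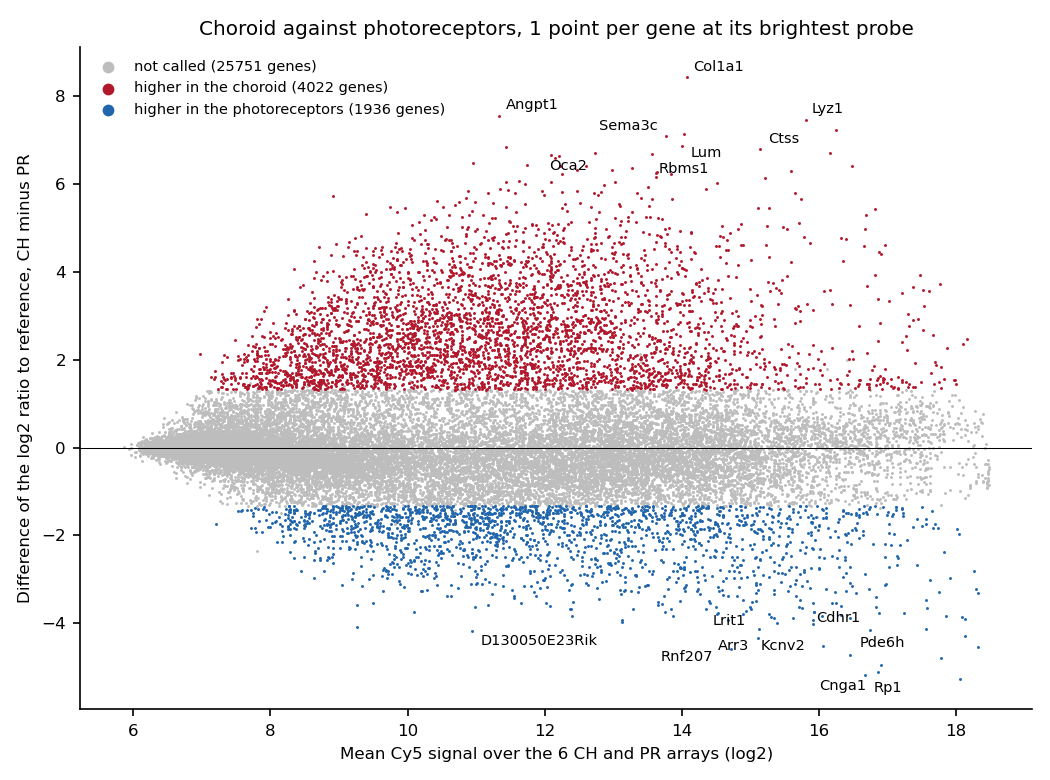
Each point is 1 gene at its brightest probe, with the mean log2 Cy5 signal over the 6 CH and PR arrays on the horizontal axis and the CH minus PR difference of the log2 ratio on the vertical axis. The 4022 genes higher in the choroid reach 8.44 above the zero line, and the 1936 genes higher in the photoreceptors reach -5.27.

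The largest difference of the log2 ratio belonged to Col1a1, a chain of type I collagen, the main fibre of connective tissue (probe at chr11:94813115-94813174, mm9). Its log2 ratios were 2.08, 1.84 and 1.96 on the CH arrays and -6.41, -6.56 and -6.49 on the PR arrays. The difference was 8.44 ± 0.12 (SE of the fit, n = 3 per tissue), an FC of 348 (limma, adjusted p = 9.9e-10). The 2 tissues were far apart and the 3 eyes of each lay within a narrow band, while the RPE arrays lay between them at -1.81, -1.44 and -1.73. Angpt1, the angiopoietin that activates the endothelial receptor Tek, read 1.67, 1.19 and 0.75 in the CH against -6.06, -6.33 and -6.66 in the PR. Its probe (chr15:42256335-42256394, mm9) was not well above background on any PR array, so only a bound can be given, at least 168-fold. Such bounds are taken in Cy5 from the mean of the brighter tissue and, for each array of the dimmer one, the higher of the probe's own signal and the lowest signal well above background, and they are open to dye bias. Genes saturated on all arrays of the higher tissue are given the same way.

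The next genes of the choroid came from several of its compartments. Sema3c, a secreted semaphorin, reached an FC of 136, with CH 3 at 2.52 well above CH 1 and CH 2 at 0.78 and 0.70, and with the RPE arrays between 3.04 and 3.38. Lum encodes the collagen binding proteoglycan lumican (FC of 116) and Ctss cathepsin S, a lysosomal protease of antigen presenting cells (FC of 111). The melanosome protein gene Oca2 had an FC of 105 and Rbms1, which codes for an RNA binding protein, 102. Other probes gave smaller differences, down to 1.99 (log2) for Rbms1 and 2.54 for Sema3c, though all probes of both were called in the same direction. Lyz1, a lysozyme gene whose sequence closely resembles Lyz2 so that its signal may belong to both, had an FC of 177. Its spot on CH 1 carried an outlier mark and was left out, so this value rests on CH 2 and CH 3. The Lyz1 probe was also saturated on 1 CH array. In Cy5 alone, with CH 1 kept, its FC was 20.5, so that the size of the difference is uncertain. None of these genes overlapped between the tissues, which the rule for naming them required.

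Among the photoreceptor genes the largest differences of the log2 ratio among those not saturated on all PR arrays were those of Rp1, a microtubule protein of the outer segment axoneme, and of Cnga1, a subunit of the rod cyclic nucleotide gated channel. Rp1 (chr1:4334346-4334405, mm9) had 4.07, 2.87 and 4.30 in the PR against -2.14, -1.31 and -0.85 in the CH, an FC of 36.2 (adjusted p = 3.9e-06). Cnga1 differed by -5.10 ± 0.27 (SE), an FC of 34.2 (limma, adjusted p = 1.84e-07). Both genes were saturated on 1 PR array. Pde6h followed at an FC of 26.6, Kcnv2 at 23, Lrit1 at 20.1, Cdhr1 at 17.9 and Arr3 at 17.6, all known photoreceptor genes that are described with their groups below. The ring finger gene Rnf207 was also among the leading genes, with 2.79, 2.86 and 2.56 in the PR against -2.17, -1.63 and -1.74 in the CH (FC of 24.0). The transcript D130050E23Rik, which has no assigned function, stood at 1.97, 1.84 and 1.06 against -3.02, -2.30 and -2.32 (FC of 18.0).

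**Figure D2:**
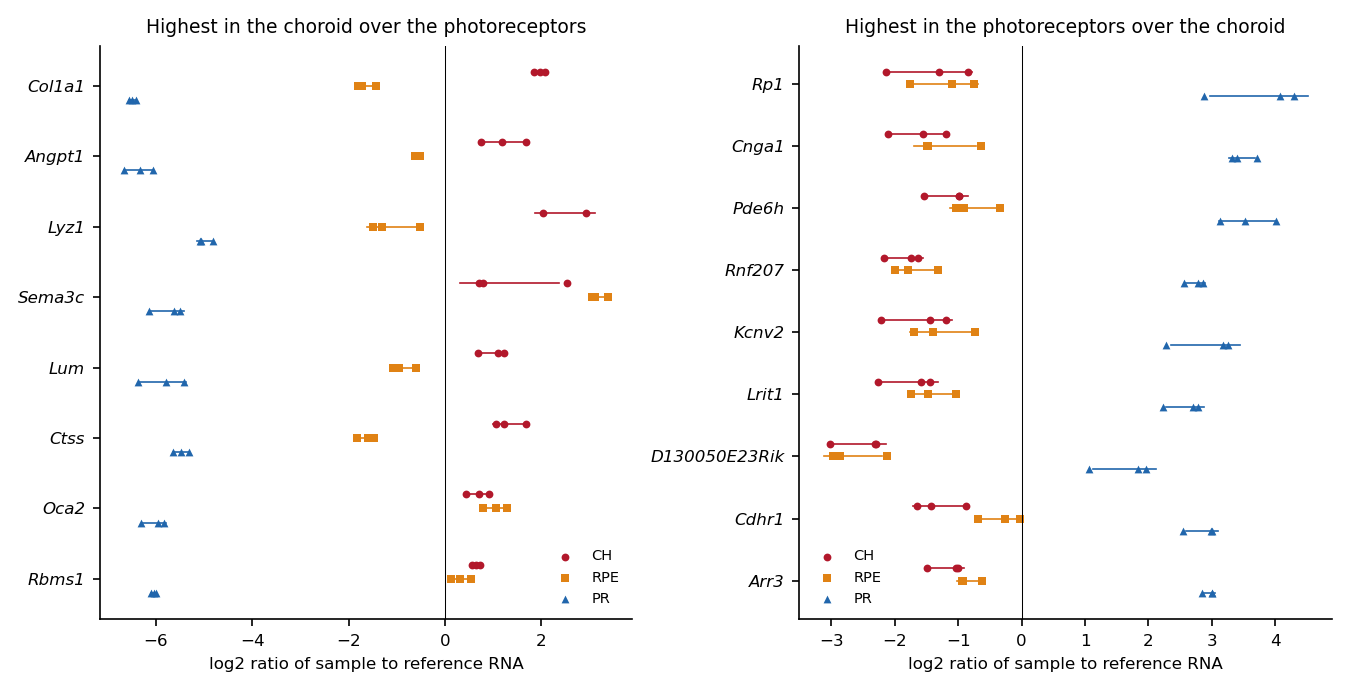
The log2 ratio of the tissue to the reference RNA on each array is plotted for 8 genes with the largest differences toward the CH and 9 toward the PR, with CH as circles, RPE as squares, PR as triangles and lines for the mean ± SD of the 3 arrays. In no gene do the CH and PR points overlap, which the choice of genes required. For Sema3c the RPE points lie to the right of all CH points, and for the photoreceptor genes the RPE points lie near the CH points.

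The reference RNA was the same on every array, yet its normalized Cy3 signal differed between the CH and PR arrays at some of the leading genes. Both dye signals are given here after loess and quantile normalization and are not raw, so these steps can enter the differences. At Col1a1 the Cy3 difference (CH minus PR, log2) was -1.96, and the Cy5 signal alone gave an FC of 89.5 in place of the 348 of the ratio. At Cnga1 the Cy3 difference was 2.05, and Cy5 alone gave an FC of 8.24 in place of 34.2. At Ctss it gave 41.2. The order of the leading photoreceptor genes turned in Cy5 alone, with an FC of 24.7 for D130050E23Rik, 18.1 for Rnf207 and 14.9 for Lrit1, above the 8.69 of Rp1. On the choroidal side, Angpt1 then lay above Col1a1. Across the called genes the shift was small: the median Cy3 difference (CH minus PR) was -0.08 for the choroidal genes, against a median Cy5 difference of 2.34. Taken as PR minus CH, the medians of the photoreceptor genes were 0.16 in Cy3 and 1.96 in Cy5. The ratio FC was more than 1.5 times the Cy5 FC for 148 choroidal and 92 photoreceptor genes, and the FC in Cy5 alone fell under 2.5 for 295 and 100 genes. For every called gene named here the Cy5 signal alone had the same direction as the ratio, so that the direction is firmer than the size of the FC. The cause of the Cy3 shift was not tested.

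**Figure D3:**
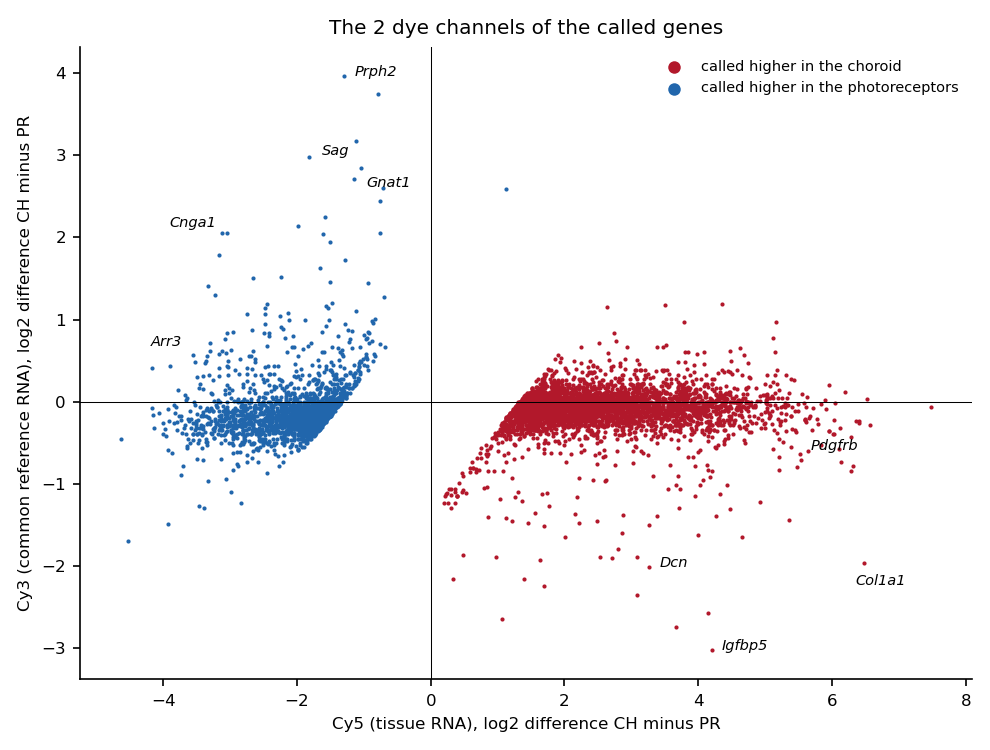
For each called gene, the horizontal axis gives the log2 difference CH minus PR in normalized Cy5 (tissue RNA) and the vertical axis the same difference in normalized Cy3 (reference RNA, identical on all arrays). Most genes lie near 0 on the vertical axis, while Col1a1 lies at -1.96 and Prph2 at 3.97, each opposite to its Cy5 difference.

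The labelled tissues were checked with defining markers of the cell types that either layer could hold. Rods and cones were higher in the PR at all of the 5 markers shown, with differences between -3.0 (Opn1sw) and -4.14 (Arr3) on the log2 scale. In the CH, all 3 markers of fibroblasts, mural cells, pigment cells and macrophages were called, and 2 of 3 of the endothelium. Pecam1, the remaining endothelial marker, was 1.00 higher with an adjusted p of 0.00476, under the fold threshold. Genes of neighbouring cells were measured in the choroid samples too. The rod, cone and RPE markers were well above background on all CH arrays, with the exception of the RPE gene Best1, which was well above background on 0 of 3 CH arrays and on 1 of 3 RPE arrays. The summed Cy5 signal of the rod list was between 1263037 and 1870902 on the CH arrays against between 4493408 and 6574125 on the PR arrays. Several rod genes, such as Sag and Gnat1, were saturated on all PR arrays, so the PR sums fall short of the true signal. For the RPE list the lowest and highest sums were 2067223 and 2727164 in the CH, 3174614 and 3502207 in the RPE, and 400704 and 504463 in the PR. In this list Kcnj13 was saturated on 2 RPE arrays, so the RPE sums may fall short too.

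**Figure D4:**
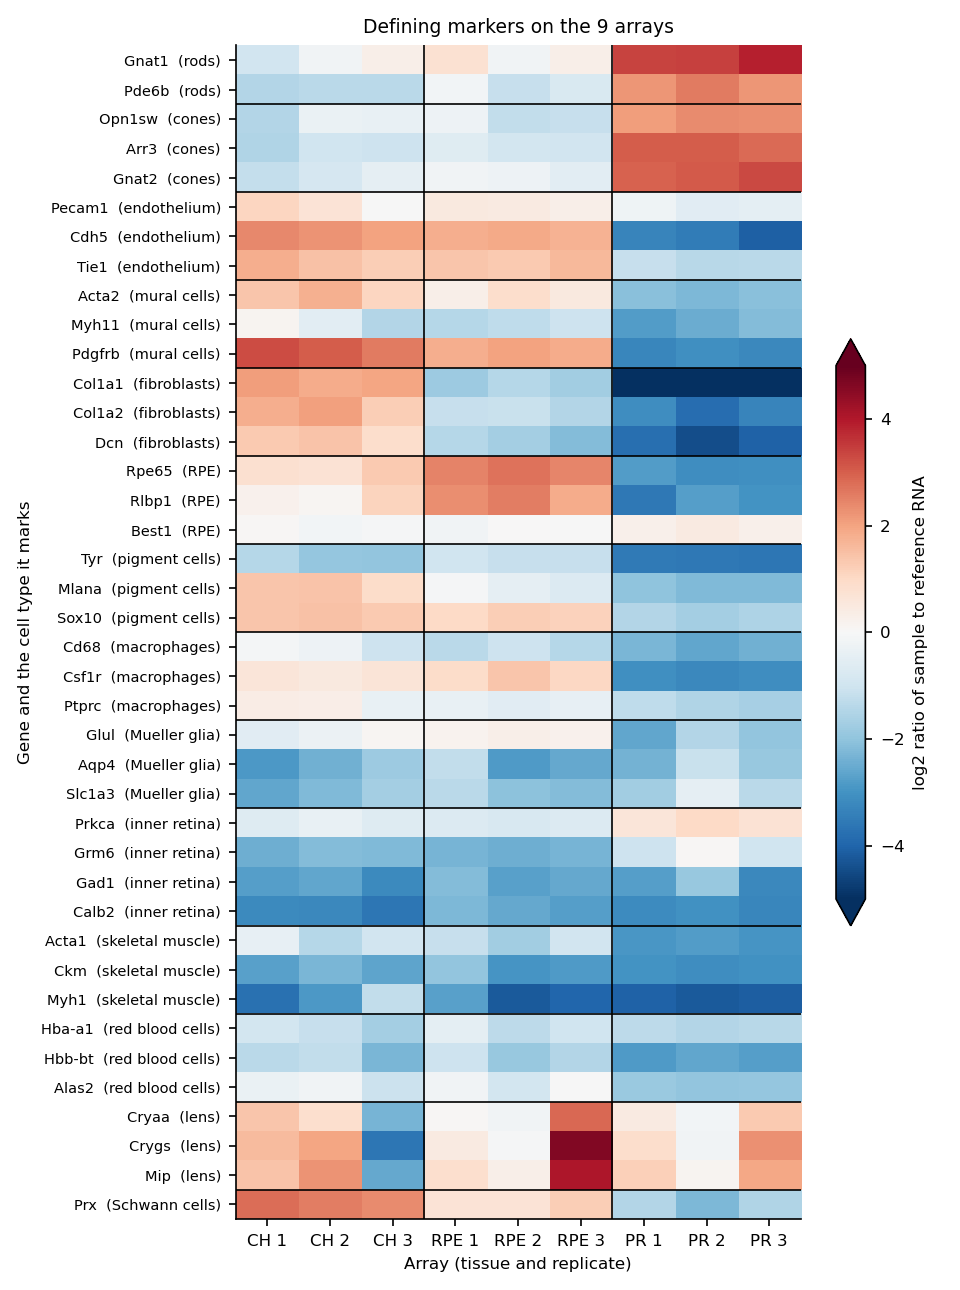
Defining markers of 14 cell types (rows) are shown on the 9 arrays (columns), coloured by the log2 ratio of the tissue to the reference RNA. Rod and cone markers are highest on the PR arrays, the fibroblast markers are highest on the CH arrays, those of vessels, pigment cells and macrophages are higher on the CH than on the PR arrays with Tyr and Csf1r highest on the RPE arrays, and the lens markers vary between arrays of the same tissue, with CH 3 far below CH 1 and CH 2.

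The rod phototransduction cascade was the list with the lowest median, at -3.53 against -0.05 over all genes. Light isomerises the chromophore of the rod receptor, which activates transducin (Gnat1, Gnb1, Gngt1) and through it the phosphodiesterase (Pde6a, Pde6b, Pde6g), so that cyclic GMP falls and the channel (Cnga1, Cngb1) closes. Of 21 members, 20 were higher in the PR, where 6.11% of all genes were called. Cnga1 had 3.39, 3.32 and 3.71 in the PR against -2.11, -1.56 and -1.20 in the CH (FC of 34.2). Several members were saturated on all PR arrays and can be given only as bounds. Sag, the rod arrestin, was at least 3.54-fold higher, Gnat1 at least 2.22-fold and Gngt1 at least 2.15-fold, and for Pde6g no fold can be given because a CH array was saturated as well. The guanylate cyclase genes Gucy2e and Gucy2f, which restore cyclic GMP, had the smallest differences of the members higher in the PR, -1.85 and -1.50. In the table of Cy5 values that the authors normalized themselves, 13 members were called in place of 20. The remaining member was Rgs9, the accelerator of transducin GTP hydrolysis, which was 3.43 higher in the CH at its brightest probe. Its probes disagreed: those at chr11:109086675-109086734 and chr11:109086669-109086728 (mm9), which overlap, gave 3.43 and 3.69, and the probe at chr11:109096382-109096441 gave -1.67. Rgs9bp and Gnb5, the partners of Rgs9 in the same complex, were higher in the PR, with differences of -3.89 and -3.25.

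Crx and Otx2, homeodomain factors of photoreceptors, are known to bind the letters TAATCC, so these were searched on both strands in the 250 bases before each gene's start (RefSeq, GRCm38.p6). A promoter was found for 17401 of the 31709 genes, and 1190 of those (6.84%) held the letters. Among the genes higher in the PR it was 119 of 1100 (10.8%), and among those higher in the CH 155 of 2682 (5.78%). In the rod list 8 of 14 promoters held them (57.1%), those of Cnga1, Sag, Gngt1, Guca1a, Cngb1, Gnb5, Gucy2e and Gucy2f. In the list of photoreceptor transcription factors it was 5 of 15, and in the cone list 1 of 6. The promoters of 4 rod genes and of Crx, which carries 2 matches, are shown because they let a reader see the letters beside genes whose levels are given here. They are printed on the strand of the gene, and capitals mark TAATCC or its reverse complement GGATTA. A match is a description of the sequence only.
Cnga1 (chr5:72642753-72643002, minus strand, 222 bases between match and start): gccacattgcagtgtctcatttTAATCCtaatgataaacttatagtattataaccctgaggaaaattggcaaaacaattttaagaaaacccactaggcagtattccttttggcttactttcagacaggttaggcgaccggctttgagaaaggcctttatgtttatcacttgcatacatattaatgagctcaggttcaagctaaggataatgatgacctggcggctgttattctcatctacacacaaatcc
Sag (chr1:87803430-87803679, plus strand, 81 bases): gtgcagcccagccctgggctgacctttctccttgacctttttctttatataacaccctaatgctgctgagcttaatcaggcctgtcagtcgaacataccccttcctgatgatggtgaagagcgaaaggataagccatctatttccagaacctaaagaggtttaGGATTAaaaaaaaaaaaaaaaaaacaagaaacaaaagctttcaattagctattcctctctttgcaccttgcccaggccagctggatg
Gngt1 (chr6:3993758-3994007, plus strand, 38 bases): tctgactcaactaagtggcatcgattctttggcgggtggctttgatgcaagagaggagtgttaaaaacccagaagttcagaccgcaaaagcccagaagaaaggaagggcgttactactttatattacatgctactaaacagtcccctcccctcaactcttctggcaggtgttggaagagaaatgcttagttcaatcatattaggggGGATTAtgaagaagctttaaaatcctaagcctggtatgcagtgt
Guca1a (chr17:47400607-47400856, minus strand, 51 bases): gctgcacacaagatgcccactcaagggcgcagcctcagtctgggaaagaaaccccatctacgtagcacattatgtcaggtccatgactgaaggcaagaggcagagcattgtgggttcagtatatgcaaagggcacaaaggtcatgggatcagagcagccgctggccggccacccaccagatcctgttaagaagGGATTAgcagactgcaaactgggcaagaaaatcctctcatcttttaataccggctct
Crx (chr7:15879956-15880205, minus strand): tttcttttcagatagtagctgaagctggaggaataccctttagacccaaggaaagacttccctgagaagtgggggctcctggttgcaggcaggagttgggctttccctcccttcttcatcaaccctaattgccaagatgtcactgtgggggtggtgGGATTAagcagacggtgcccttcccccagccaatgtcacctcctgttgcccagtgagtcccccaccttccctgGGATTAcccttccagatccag

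Cones are few among mouse photoreceptors and use their own forms of most cascade proteins. All 11 members of the cone list were higher in the PR, with a median of -3.26 and single differences between -2.32 and -4.73. Pde6h, the inhibitory subunit of the cone phosphodiesterase, had 3.53, 3.13 and 4.02 in the PR against -1.54, -0.99 and -0.98 in the CH. Arr3, cone arrestin (chrX:97813773-97813832, mm9), had 3.01, 3.01 and 2.85 against -1.49, -1.01 and -1.04 (FC of 17.6, adjusted p = 1.4e-08). Kcnv2, a modulatory potassium channel subunit of rods and cones, had 3.17, 2.27 and 3.26 against -2.22, -1.45 and -1.20. The cone opsin genes differed by FCs of 7.98 (Opn1sw) and 13.8 (Opn1mw). In none of these genes did the arrays of the 2 tissues overlap, as in every called gene.

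Of the 16 transcription factors of photoreceptors, 12 were higher in the PR, with a median of -2.62. Nrl, which directs the rod fate, had 3.56, 3.83 and 3.52 in the PR against -0.79, 0.04 and 0.18 in the CH and was saturated on 2 PR arrays. Neurod1 had 2.35, 2.10 and 2.62 against -1.87, -1.12 and -1.19 (FC of 13.5). Crx had 2.04, 2.11 and 2.32 against -1.56, -1.41 and -1.44 (FC of 12.4, adjusted p = 1.4e-07). These 3 regulators were apart in every eye, as was every called gene. Otx2 was different: its values were 0.53, 0.73 and 0.74 in the PR, -0.30, -0.09 and 0.94 in the CH and between 1.25 and 1.78 in the RPE, where it is also known to act, and the CH and PR arrays overlapped (difference -0.48, adjusted p = 0.184). Rxrg (-0.21) and Prdm1 (-0.69) were not called either, and Onecut1 was not well above background in either tissue.

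Genes of the outer segment discs and of the matrix around them were higher in the PR in 15 of 19 cases (median -2.84). Prph2 and Rom1, the tetraspanins that shape the disc rim, were saturated on all PR arrays, so that they were at least 2.46-fold and at least 1.73-fold higher there, and in Cy5 alone neither passed the FC of 2.5. The disc cadherin Cdhr1 had 2.98, 2.55 and 3.01 in the PR against -1.65, -1.43 and -0.88 in the CH. Impg2, a proteoglycan of the matrix between the photoreceptors, differed by -4.0, and the prominin Prom1 by -3.81. Impg1, Rdh8 and Tmem237 were not called, at -0.70, -0.49 and -0.54.

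The connecting cilium, through which all outer segment proteins pass, gave a divided picture. Of 51 genes, 23 were higher in the PR (45.1%, against 6.11% of all genes). In the CH it was 1 (1.96%, below the 12.7% of all genes), and 27 were not called (median -1.12). Rpgrip1, which anchors the cilium protein Rpgr, had 2.28, 2.30 and 2.02 in the PR against -1.75, -1.60 and -1.58 in the CH (FC of 14.4). Mak, a kinase of the ciliary axoneme, had 1.41, 2.09 and 1.85 against -1.56, -1.77 and -1.89 (FC of 11.5). Of the BBSome, the coat complex of ciliary cargo, and its partners, Arl6 differed by -3.10, Bbs5 by -3.02, Bbs7 by -2.78 and Bbs9 by -2.46. Intraflagellar transport genes were mostly not called. Among the 12 Ift genes of the list only Ift81 was called (-1.99), the others lay between -1.26 and 0.66, and the motor genes Kif3a and Kifap3 stood at -0.19 and -0.67. Unc119, a carrier of lipidated proteins that also counts in the synapse list, was saturated on all PR arrays and at least 1.69-fold higher there, but was not called in Cy5 alone.

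At the ribbon synapse, where photoreceptors release glutamate onto bipolar cells, 19 of 27 genes were higher in the PR and 0 in the CH (median -2.22). Lrit1, a leucine rich repeat protein of the photoreceptor synapse, had 2.71, 2.23 and 2.78 in the PR against -2.26, -1.58 and -1.44 in the CH (FC of 20.1). Cacnb2, the beta subunit of the synaptic calcium channel, had 1.54, 1.56 and 1.49 against -1.98, -1.90 and -1.69 (FC of 10.4), and its partner genes Cacna2d4 and Cacna1f differed by -2.91 and -2.84. Complexins Cplx4 and Cplx3 stood at -3.17 and -2.11, the vesicle proteins Syt1 and Slc17a7 at -3.15 and -2.68. The 8 genes not called included Bsn (-0.89), Snap25 (-1.12) and Vamp2 (-1.19).

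Photoreceptors are known for their high rate of aerobic glycolysis. In the list of glycolysis and the tricarboxylic acid cycle, 9 of 38 genes were higher in the PR (23.7%, against 6.11% of all genes). In the CH it was 3 (7.89%, below the 12.7% of all genes). The members called in the PR were all on the glycolytic side: Ldha, Hk2, Pgam1, Pkm, Aldoc, Pfkp, Pgk1, Hk1 and Eno2. Ldha, the lactate dehydrogenase subunit that favours lactate formation, had 2.63, 2.18 and 3.18 in the PR against -1.23, -0.82 and -0.92 in the CH (FC of 12.6, and 3.06 in Cy5 alone). Hk2, the inducible hexokinase, had 1.82, 1.74 and 1.81 against -1.14, -0.93 and -0.77 (FC of 6.69). Pkm differed by -1.88. Pgam1 differed by -2.22 and lost its call in Cy5 alone and in the authors' table. The other lactate dehydrogenase subunit, Ldhb, was higher in the CH, with -0.45, -0.36 and 0.25 against -2.34, -2.44 and -2.37 (FC of 4.58), as were Suclg2 (1.84) and Pdk2 (1.43). Ldha and Ldhb therefore differed in opposite directions.

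The 83 subunits of oxidative phosphorylation differed little, with a median of -0.02 and 3 genes called each way, a share of 3.61% against 12.7% and 6.11% over all genes. Of the 3 higher in the CH, Cox8b (3.89) is a subunit isoform known from muscle, Ndufa4l2 (3.13) is known from pericytes and hypoxic cells and Cox6b2 (2.33) from testis. Ndufa4 was higher in the PR (-1.83) and lost its call in Cy5 alone and with slide as a block. Ribosomal protein genes were also close between the tissues: 4 of 85 were higher in the CH (4.71%, below the 12.7% of all genes) and 0 in the PR, with a median of 0.35. The 4 were Rpl39l (1.79), Rpl10, Rpl35 and Rps12. Their number was 12 with median centring in place of loess and 1 in Cy5 alone. Rpl10 was saturated in the CH and at least 1.65-fold higher. Rpl35 (1.44) lost its call without CH replicate 2 (1.27) or PR replicate 1 (1.32).

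Of 27 splicing regulators, 5 were higher in the PR (18.5%, against 6.11% of all genes) and 4 in the CH (14.8%, near the 12.7% of all genes). Those of the PR were Srrm4 (-2.53), Srrm3 (-2.16) and Celf3 (-2.10), neuronal factors of which the first pair promotes microexons, with Ptbp2 (-1.57), the neuronal polypyrimidine tract protein, and Khdrbs3 (-1.54). Those of the CH were Rbms3 (3.89), Ptbp3 (2.35), Ptbp1 (1.54), the form of non-neuronal cells, and Qk (1.53). Srrm4 had 0.64, 0.53 and 0.38 in the PR against -2.12, -1.91 and -2.01 in the CH. Counting any probe of a gene gave 9 in the PR, and asking all probes to be called gave 0 in the CH. Rods of the mouse are known for an inverted nucleus with the heterochromatin in its centre and little lamin A. In the list of the nuclear lamina and heterochromatin, 2 of 25 genes were higher in the CH (8%) and 1 in the PR (4%). Both shares lie below the 12.7% and 6.11% of all genes. Lmna, which codes for lamin A and C, was higher in the CH, with 1.06, 0.94 and 0.63 against -2.30, -2.50 and -2.30 (FC of 9.48). Lmnb1, lamin B1, was higher in the PR, with 2.38, 2.39 and 2.32 against 0.21, 0.38 and 0.31 (FC of 4.17). Sun2, a link between the lamina and the cytoskeleton, was higher in the CH by 2.40. The lamin B receptor gene Lbr, which tethers heterochromatin, was not called (-0.56), nor were the other 21 genes of this list. The number of its genes higher in the PR was 1 here, 2 without CH replicate 1, CH replicate 2 or PR replicate 1, and up to 6 under the other alternatives.

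On the choroidal side, the interstitial matrix was the list with the highest median (4.30), and 34 of its 37 genes were higher in the CH, where 12.7% of all genes were called. Beside Col1a1 and Lum, Mgp, matrix Gla protein, an inhibitor of calcification, had 2.69, 2.38 and 1.85 in the CH against -3.92, -4.04 and -4.03 in the PR (FC of 78.9, and 25.1 in Cy5 alone). Postn (periostin) differed by 5.80, Col3a1 by 5.67, Thbs1 (thrombospondin 1) by 5.66, Fbln5 by 5.24 and Fn1 (fibronectin) by 4.77. Dcn, decorin, was saturated in the CH and at least 9.67-fold higher. Fibril collagens, their small proteoglycans, microfibril genes (Fbn1, Mfap2, Mfap4, Mfap5) and the cross-linking enzymes Lox and Loxl1 were all among those called. The 3 exceptions were Eln (elastin, 0.51), Col6a2 (0.64) and Tnc (tenascin C), which was not well above background in either tissue. RPE arrays lay between the 2 tissues for this list, with medians between -0.40 and -0.26, against 0.62 to 0.90 on the CH arrays and -3.59 to -3.21 on the PR arrays.

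Basement membrane genes, which underlie endothelium and RPE alike in Bruch's membrane, were higher in the CH in 16 of 24 cases (median 2.94). Lama2 and Lama4, laminin chains of muscle and of vessels, had 2.06, 1.75 and 1.44 against -3.38, -3.19 and -3.45 (FC of 34.2) and 1.72, 1.72 and 1.31 against -2.78, -3.24 and -2.98 (FC of 23.9). Nid2, a nidogen that links laminin to type IV collagen, had -0.71, -0.71 and -0.13 against -5.21, -5.38 and -5.41 (FC of 28.2). The widespread type IV chains Col4a1 and Col4a2 were called (2.71 and 1.83), as was Col4a5 (2.59), while Col4a3, Col4a4 and Col4a6 were not (-0.78, 0.91 and -0.27). Lama3 and Lamb3, laminin chains of epithelia, were not called (0.51 and 0.19). Unlike the interstitial matrix, this list had similar medians on the CH arrays (0.20 to 0.42) and on the RPE arrays (0.41 to 0.55).

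Of 34 endothelial genes, 25 were higher in the CH and 0 in the PR (median 3.50). Ptprb, the endothelial phosphatase that opposes Tek signalling (chr10:115820912-115820971, mm9), had 2.97, 2.98 and 2.37 against -3.63, -3.49 and -3.66 (FC of 82.5, adjusted p = 2.89e-09). Mmrn2, a matrix protein of endothelial cells, had 2.47, 2.33 and 2.19 against -3.52, -3.80 and -3.87 (FC of 66.7). Cdh5, the cadherin of endothelial junctions, had 2.42, 2.24 and 2.00 against -3.30, -3.51 and -4.10 (FC of 57.8). In all 3 the tissues were separated by more than 5 on the log2 scale. The receptors for VEGF had FCs of 24.2 (Flt1) and 6.85 (Kdr), while Vwf (von Willebrand factor) differed by 4.79 and the junction gene Cldn5 by 4.65. Flt4, the receptor of lymphatic endothelium, was not called (0.24). Plvap, a protein of the fenestrae of the choriocapillaris, was at 1.13, 0.04 and 0.80 in the CH against -0.29, -0.56 and 0.13 in the PR and overlapped between the tissues (difference 0.90, adjusted p = 0.0204). The RPE arrays were close to the CH arrays for this list, with medians of 0.97 to 1.15 against 1.13 to 1.65.

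Pericytes and smooth muscle surround the endothelium and set the width of the vessel. Among 26 genes of pericytes and smooth muscle, 22 were higher in the CH and 0 in the PR (median 3.52). Pdgfrb, the receptor through which endothelium recruits pericytes, had 3.26, 3.04 and 2.60 against -3.27, -3.06 and -3.24 (FC of 71.5). Notch3, a receptor of arterial smooth muscle, and its target Heyl had FCs of 26.1 and 23.5. Among contractile genes, Tagln differed by 4.15, Acta2 by 3.56 and Cnn1 by 3.49, and Des, desmin, was at least 8.27-fold higher. Myh11, the smooth muscle myosin, varied more between eyes, with 0.13, -0.52 and -1.45 in the CH against -2.79, -2.50 and -2.15 in the PR. Mylk, Mcam, Myocd and Tpm1 were not called. The CArG box, known as the site of serum response factor in smooth muscle genes, was searched in the same promoters. It was found in 268 of all 17401 (1.54%), in 54 of 2682 genes higher in the CH (2.01%) and in 1 of the 19 promoters of this list. That one belonged to Myl9, a myosin light chain gene with 1.55, 1.31 and 0.70 in the CH against -2.96, -3.35 and -2.88 in the PR, and it is shown with the match in capitals.
Myl9 (chr2:156775214-156775463, plus strand, GRCm38.p6, 151 bases between match and start): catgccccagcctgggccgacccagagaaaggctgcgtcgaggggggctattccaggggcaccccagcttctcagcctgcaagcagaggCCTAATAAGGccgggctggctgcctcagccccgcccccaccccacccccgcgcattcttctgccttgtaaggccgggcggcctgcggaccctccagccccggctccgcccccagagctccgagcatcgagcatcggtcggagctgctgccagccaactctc

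In the list of vascular tone, 18 of 32 genes were higher in the CH (56.2%, against 12.7% of all genes; median 1.5). In the PR it was 2 (6.25%, near the 6.11% of all genes). The endothelin system led it. Edn3, a peptide ligand, had 2.27, 2.23 and 1.77 against -4.60, -4.15 and -4.78 (FC of 96.9), and Edn1 differed by 4.06. Both endothelin receptors were higher in the CH, Ednrb with 0.56, 0.50 and -0.53 against -4.82, -5.13 and -4.98 (FC of 35.6) and Ednra by 4.88. Ednrb is also a melanocyte gene. Ptgir, the prostacyclin receptor, was at least 26.2-fold higher, and Ptgis, which makes prostacyclin, differed by 4.65. The angiotensin receptor Agtr1a differed by 4.72 and the subunits of the nitric oxide receptor by 2.65 (Gucy1a1) and 1.86 (Gucy1b1). The 2 members higher in the PR were adrenergic receptors: Adra2a had 1.42, 1.19 and 1.17 in the PR against -1.43, -0.94 and -0.91 in the CH (FC of 5.10), and Adrb1 differed by -1.62. Other adrenergic receptors, Adra1a, Adra1b and Adra1d, were not called.

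Pigment genes were higher in the CH in 17 of 21 cases (median 3.38). Melanin genes are used by choroidal melanocytes, which come from the neural crest, and by the RPE, so that both may contribute to these probes. Oca2 had 0.44, 0.70 and 0.91 in the CH, -5.96, -6.31 and -5.82 in the PR and between 0.79 and 1.29 in the RPE. Gpr143, a receptor of the melanosome membrane, had 0.93, 0.99 and 1.16 against -4.52, -4.35 and -4.69 (FC of 46.8), with the RPE between 0.80 and 0.96. Tyrp1 and Dct, melanin enzymes, were saturated in the CH and at least 12.7-fold and at least 8.47-fold higher than in the PR. Mc1r, the melanocortin receptor of melanocytes, was at 1.04, 1.20 and 1.08 in the CH and 1.86, 1.17 and 2.09 in the PR and was not called (-0.60, adjusted p = 0.0308).

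Of 22 genes of Schwann cells and myelin, 12 were higher in the CH and 0 in the PR (median 2.08). Foxd3, a factor of the neural crest and its glia, had 2.32, 2.55 and 1.96 in the CH and was not well above background in the PR, at least 15.7-fold higher. S100b had 1.67, 1.75 and 1.19 against -3.10, -3.0 and -3.32 (FC of 25.5), and Gldn, which gathers sodium channels at the node, had an FC of 24.9. Prx and Pmp22, proteins of peripheral myelin, differed by 4.31 and 4.51. Mbp, another myelin protein gene, differed by 0.75 and was not called. Markers of peripheral nerve cell bodies gave no such picture, with 2 of 20 higher in the CH, a share below the 12.7% over all genes. These were Slc18a2, the vesicular monoamine transporter (1.37, 2.06 and 1.35 against -2.44, -2.75 and -3.14, FC of 20.7), which mast cells use too, and Chrnb4 (1.39), whose call was lost without CH replicate 3 (1.23). Th and Chat, which make noradrenaline's precursor and acetylcholine, stood at -0.83 and 0.68 and were not called, and 5 of the 20 genes were not well above background on any CH or PR array.

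Transcription factors of mesenchyme were higher in the CH in 24 of 34 cases (median 2.77). Foxf2 had 2.20, 2.21 and 1.59 against -4.41, -4.23 and -4.67 (FC of 86.8) and Foxc1 1.04, 0.99 and 0.50 against -4.30, -3.92 and -4.56 (FC of 34.4). Foxc1 is a known regulator of neural crest derived tissue around the eye. Foxc2 (4.77), Prrx1 (4.67), Foxd1 (4.54) and Twist1 (3.82) differed in the same direction. The Zic family members Zic1 and Zic4, Pitx1 and Lmx1b were not called.

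Genes of secreted signals followed. In the retinoic acid list, 14 of 24 were higher in the CH. The synthesising enzymes Aldh1a2 (1.84, 1.67 and 1.41 against -2.81, -2.84 and -3.12, FC of 23.6) and Aldh1a3 (3.28) were called and Aldh1a1 (1.16) was not. The degrading enzymes Cyp26b1 and Cyp26a1 (3.21 and 1.95) and the receptors Rarg and Rarb (2.93 and 1.87) were higher in the CH as well. Lrat (5.45) and Stra6 (4.86), genes of retinoid storage and uptake with their main site in the RPE, were higher on CH 3 (1.63 and 1.27) than on CH 1 and CH 2 (0.58 and 0.45, and -0.09 and -0.09). Among the insulin-like growth factors and their binding proteins, 8 of 12 were higher in the CH. Igf1, the ligand, had 0.79, 0.85 and 0.30 against -3.79, -3.70 and -3.93 (FC of 21.9), while its receptor Igf1r and the ligand Igf2 were not called (0.16 and 0.62). Of the 5 Igf1 probes 3 were called, and the lowest stood at 0.43. Igfbp5 was saturated in the CH and at least 18.4-fold higher, and Igfbp7, which varied most between the CH eyes (1.58, 0.04 and 1.00), had an FC of 24.2.

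Of 39 genes of the BMP and TGF-beta pathways, 28 were higher in the CH and 0 in the PR (median 2.40). The targets Id1 and Id2, inhibitors of helix-loop-helix factors, had 0.49, 0.69 and 0.25 against -4.95, -4.76 and -4.63 (FC of 38.3) and -0.14, 0.17 and -0.33 against -5.27, -4.23 and -4.74 (FC of 25.0). The ligands Bmp2 and Bmp4 differed by 4.11 and 3.64, Tgfb3 by 3.36, and Tgfb1 was at least 7.69-fold higher. Tgfbr3, the co-receptor betaglycan, had 0.27, 0.11 and 0.38 against -3.85, -4.13 and -4.02 (FC of 19.1), and Tgfbr2 differed by 3.82. For Bmp4 the RPE arrays lay higher still (1.79, 2.61 and 2.18) than the CH arrays (0.54, 0.40 and 1.25), with the PR between -3.11 and -2.69. The BMP receptors Bmpr1a, Bmpr1b and Bmpr2 were not called (-0.58, 0.58 and 1.08).

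In the Wnt list 24 of 39 genes were higher in the CH and 0 in the PR (median 1.71). Fzd1, a receptor, had 1.49, 1.51 and 0.81 against -5.19, -5.06 and -5.18 (FC of 85.2), and Fzd7, Fzd2, Fzd4 and Fzd6 differed by between 2.46 and 3.43. Dkk2, a secreted regulator, had 2.07, 1.79 and 0.88 against -4.07, -4.37 and -4.45 (FC of 58.7), and the agonist Rspo3 was at least 14.2-fold higher. Sfrp5, Sfrp1, Sfrp4 and Sfrp2, soluble antagonists, differed by between 2.25 and 3.66. Axin2, a target that reports canonical signalling, was not called (0.31), and Lef1 was (1.96). Ndp, which codes for the ligand norrin, was not called (0.36) and its receptor components Fzd4 (2.63) and Tspan12 (3.33) were.

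Macrophages are resident immune cells of the choroid. Of 27 macrophage genes, 22 were higher in the CH and 0 in the PR (median 2.95). Adgre1, an adhesion receptor used to mark mouse macrophages, had 0.81, 1.02 and 0.53 against -5.08, -5.39 and -5.30 (FC of 66.1) and Ms4a7 0.56, 0.72 and 0.22 against -5.18, -5.85 and -5.43 (FC of 63.4). Ctss, described above, had 1.05, 1.67 and 1.22 against -5.32, -5.65 and -5.48. Csf1r and Mrc1 differed by 3.72 and 4.11. Of the 3 Csf1r probes 2 were called, and the lowest stood at -0.11. Lyve1, Folr2, Cd163, Itgam and Cd14 were not called. Of 11 mast cell genes, 6 were higher in the CH (54.5%, against 12.7% of all genes) and 1 in the PR (9.09%, against 6.11%). Among the 6 were Kit (0.51, 0.67 and 0.65 against -3.69, -3.86 and -4.20), which melanocytes share, and Gata2 (4.30), which endothelium shares. The protease Cpa3 was another (-0.06, 1.06 and 0.25 against -1.97, -2.51 and -2.41, FC of 6.56). The mast cell tryptase Tpsb2 was not called (-0.01). Hdc, which makes histamine, was higher in the PR, with 2.29, 2.10 and 2.17 against -1.12, -0.56 and -0.51 (FC of 7.55).

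Of 17 lymphocyte genes, 6 were higher in the CH (35.3%, against 12.7% of all genes) and 1 in the PR (5.88%, near the 6.11% of all genes). The median was 0.38, and with slide as a block the 6 became 2. Cd3g and Cd2, T cell genes, were not well above background in the PR and at least 3.24-fold and at least 4.42-fold higher. The other Cd2 probe was not called (0.61). The B cell gene Ms4a1 was at -0.10, 2.06 and 1.45 in the CH, at least 3.93-fold above the PR, and its difference of 2.66 lost the call without CH replicate 2 (2.20), CH replicate 3 (2.5), or any of the PR replicates (2.60 to 2.71). The T cell genes Cd3e, Cd4 and Cd8a were not called. Jchain, the joining chain of immunoglobulins, was higher in the PR, with 2.39, 2.34 and 2.20 against 1.21, 0.69 and 0.56 (FC of 2.82).

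Antigen presentation was higher in the CH in 16 of 20 genes and in the PR in 0 (median 2.38). B2m, the light chain of class I molecules, had 0.45, 0.62 and 0.18 against -4.34, -4.17 and -4.58 (FC of 27.5, and 10.5 in Cy5 alone). Nlrc5, the class I transactivator, had 1.63, 1.70 and 1.53 against -2.84, -3.21 and -3.02 (FC of 25.0), and the class II gene H2-Ab1 0.95, 1.31 and 0.33 against -3.27, -3.52 and -3.57. The other Nlrc5 probe was not called (-0.25). Probes of the class I genes may read more than 1 member of this closely related family. Of 28 interferon response genes, 23 were higher in the CH and 0 in the PR (median 2.75). Rtp4 had -0.36, -0.54 and -0.98 against -5.46, -5.46 and -5.49 (FC of 28.7), Ifit1 0.41, 0.31 and 0.26 against -4.16, -4.48 and -4.30 (FC of 24.9) and Gbp3 an FC of 20.9. The regulator Irf7 was not called (-0.57) while Irf1 and Irf8 were (3.76 and 2.88).

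Of 24 complement genes, 17 were higher in the CH (70.8%, against 12.7% of all genes). In the PR it was 1 (4.17%, below the 6.11% of all genes), and the median was 2.70. C1ra, a protease of the classical pathway, had 1.38, 1.36 and 0.94 against -4.94, -5.18 and -5.16 (FC of 80.1), and C4b had 1.17, 1.14 and 0.98 against -3.77, -3.71 and -3.86 (FC of 29.4), though its probe may also read the closely related C4a. The central component C3 differed by 2.28, Cfb by 3.19 and the recognition chains C1qb and C1qc by 2.91 and 3.46. Factor D, the product of Cfd, was at least 4.64-fold higher, with CH values of 0.70, -1.46 and -0.49, and lost its call without PR replicate 2 (2.24) or PR replicate 3 (2.48). Without CH replicate 2 the number higher in the PR was 2. Of the terminal components, C6 and C7 were at -0.15 and -0.06 and not called. Vtn, vitronectin, which keeps the terminal complex from membranes and serves as an adhesion protein, was the member higher in the PR, with 2.60, 3.03 and 2.91 against -1.28, -1.05 and -0.72 (FC of 14.6, adjusted p = 1.12e-07). Cd59a, another inhibitor of the terminal complex, was not called (-1.27).

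Immediate early and stress genes respond to handling of tissue as well as to signals. They were higher in the CH in 17 of 29 cases (58.6%, against 12.7% of all genes). In the PR it was 3 (10.3%, against 6.11% of all genes), and the median was 1.67. Klf2, a flow responsive factor of endothelium, had 2.21, 2.58 and 1.93 against -3.95, -4.17 and -3.91 (FC of 76.1). Ccn2, connective tissue growth factor, had 2.48, 2.93 and 1.91 against -3.69, -3.55 and -3.87 (FC of 70.9, and 30.3 in Cy5 alone) and Klf4 an FC of 32.3. Egr1 differed by 2.90, while Fos was at 1.08, Jun at 0.82, Junb at 0.14 and Ier2 at -0.77, none of them called. Higher in the PR were Ier3 (2.67, 2.44 and 2.90 against 1.06, 0.88 and 0.47, FC of 3.65), Btg2 (-1.56) and the heat shock gene Hspa1a (-1.47).

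Genes of neighbouring cells belong beside these results. Of 18 RPE genes, 16 were called in favour of the CH (median 3.65), and the list was higher still on the RPE arrays, with medians of 1.66 to 1.84 against -0.08 to 0.84 on the CH arrays. Cdh3 (0.28, 0.33 and 1.40 in the CH against -5.17, -5.12 and -5.19 in the PR) and Kcnj13 (FC of 55.4) were among the leading members, and CH 3 was the highest of the CH arrays for both. Of 17 genes known from Müller glia, 10 were higher in the CH (58.8%, against 12.7% of all genes) and 1 in the PR (5.88%, near the 6.11% of all genes). Several of the 10, such as Vim (3.57), Sox9 (4.06), Hes1 (3.92) and Ccn1 (3.87), are also used by mesenchyme or the RPE. The glial transporter Slc1a3 and water channel Aqp4 were not called (-0.98 and -0.58), and PR 2 was the highest PR array for both (-0.44 and -1.11). Glul, a further marker of Müller glia, was called higher in the CH (difference 1.77). It had -0.55, -0.29 and 0.09 in the CH against -2.61, -1.47 and -1.97 in the PR. Car2, carbonic anhydrase 2, was higher in the PR (1.36, 1.48 and 1.25 against -1.19, -1.07 and -1.12). The part of these cells in the results above was not tested.

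Of 28 genes of inner retinal neurons, 4 were higher in the PR (14.3%, against 6.11% of all genes) and 3 in the CH (10.7%, below the 12.7% of all genes). The former were Lhx1, Grm6, Pcp2 and Prkca, 3 of them genes of bipolar cells, with PR 2 the highest array for each of the 4. Grm6 was at -1.05, 0.05 and -1.0 in the PR against -2.44, -2.16 and -2.22 in the CH. Without PR replicate 2, the differences of Grm6 and Pcp2 were -1.25 and -1.28 and their calls were lost, and the number higher in the PR was 1. With slide as a block it was 10. Those higher in the CH, Rbpms (3.64), Tfap2a (2.05) and Thy1 (1.88), are genes that vessels, mesenchyme or immune cells use as well. Skeletal muscle had 2 of 22 genes higher in the CH (9.09%, below the 12.7% of all genes), Acta1 (1.96) and Ttn (1.95), the latter losing its call without any 1 of the PR replicates (1.90 to 1.99). Only 1 of the 4 Ttn probes was called, and the lowest stood at -0.01. Myh1, a fast myosin, was not called, at -3.73, -2.86 and -1.22 in the CH. Among 11 red blood cell genes 1 was called in the CH (9.09%), Alas2 (1.39), which lost its call without CH replicate 1 (1.30) or CH replicate 2 (1.22). Without CH replicate 3 or PR replicate 2 the count was 2. In the same list, Hba-a1 was nearly equal (0.14, adjusted p = 0.663).

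Lens genes differed more between eyes than between tissues. Of 21, only Crygn was called (1.48 higher in the CH). Crygs had 1.60, 1.97 and -3.63 in the CH and 0.87, -0.17 and 2.30 in the PR, and over the CH and PR arrays the list's medians ran from -2.59 (CH 3) to 1.97 (CH 2). The median difference of the list was -0.73 over all arrays and 1.53 on slide 3. Of 11 adipocyte genes, 3 were higher in the CH (27.3%, against 12.7% of all genes), namely Plin4 (2.96), Pparg (2.80) and Cfd. The fat cell hormones Adipoq and Lep were not called, the latter being not well above background in either tissue.

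**Figure D5:**
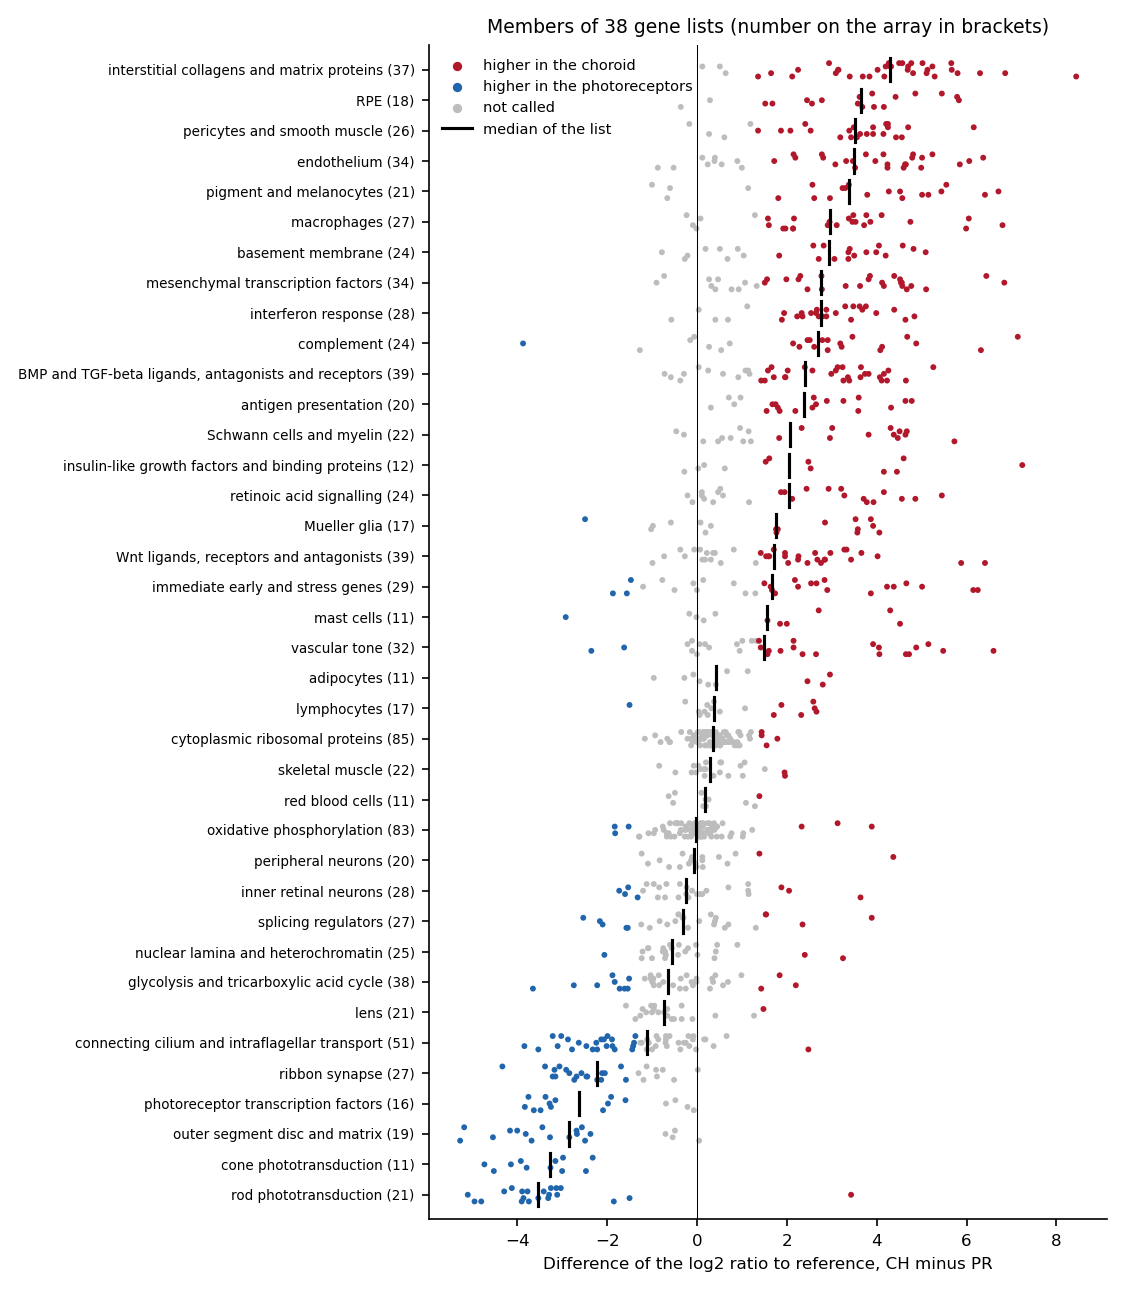
Each point is 1 gene of a list, placed by its CH minus PR difference of the log2 ratio, with red for genes higher in the choroid, blue for genes higher in the photoreceptors, grey for genes not called and a black bar for the median of the list. The medians run from 4.30 for the interstitial matrix to -3.53 for rod phototransduction, and oxidative phosphorylation (-0.02) and ribosomal proteins (0.35) lie near 0.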

How the data were processed

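RNA from 3 CH, 3 RPE and 3 PR samples was hybridised on Agilent arrays of 44397 spots. The deposited scanner files hold spot intensity in both dyes, and the authors' scanner software, Feature Extraction 9.5.3.1, also gave a log10 ratio of Cy5 to Cy3. The authors worked in R 2.14.0 with limma on a common reference design with empirical Bayes statistics. The deposited value table holds log2 intensity normalized by the authors, close to the Cy5 signal, with its scaling not stated, and served as an alternative. How background and dyes were normalized is not given in the sources used here.

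From the mean and background intensities, log2 ratios were computed in limma 3.58.1 (R 4.3.3) with normexp background correction (offset 50) and loess within arrays. Apart from the medians over spots, Cy5 and Cy3 signals were rebuilt from the ratio and the mean log2 intensity of both dyes. That mean intensity was quantile normalized between arrays. Control spots and outlier-marked spots (228 to 586 per array) were left out, and spots of a probe were averaged. All 9 arrays entered the linear model, and the contrast was CH minus PR. Calls need an FC above 2.5 and an adjusted p below 0.01 (limma, Benjamini-Hochberg over 39429 probes), the thresholds of the study's methods. The number of arrays limits the precision. A gene was counted at the probe with the highest mean Cy5 signal over the CH and PR arrays. Names were updated by accession for 26055 probes, by symbol for 3195 and by older symbol for 930, and 9249 kept the name of the files. Probe positions are those of the files (mm9), and promoters are from RefSeq (GRCm38.p6). Probes of closely related genes may read more than 1 of them.

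The genes named are, in each direction, the 10 with the largest FC past both thresholds that did not overlap between the CH and PR arrays, were well above background on all 3 arrays of the higher tissue and were saturated there on fewer than 3. From each of 38 gene lists the rule adds the 3 called genes with the largest FC in the more frequent direction and the 1 with the largest in the other, or the brightest where none was called. Other list members were named after their values were seen, and some genes the rule takes are not reported here. The comparison and the lists were chosen with earlier results of these data known. In simulated data with 200 changed probes of 39429, 91 of 100 changed by 2 (log2) and 98 of 100 changed by 3 were called, and 0 unchanged ones. The simulated noise was independent, with no slide effect, dye shift or saturation, and far fewer probes changed than in the data. It checks the fit and gives no error rate for the calls. The replicate numbers were checked for pairing: the deviations of same-numbered CH and PR arrays correlated at -0.076, 0.289 and 0.064, so they were not taken as pairs.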

Additional observations from a re-analysis of the deposited data

How the results depend on the processing

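The counts of 4022 genes higher in the CH and 1936 in the PR stayed within 1.5 times under all alternatives but 2, both for the PR: 3242 genes with the log ratio of the scanner software and 3170 with an FC above 2 (4173 and 4965 in the CH). Leaving out 1 array at a time gave 3944 to 4115 genes in the CH and 1917 to 2031 in the PR. Cy5 alone gave 3704 and 2273, and slide as a fixed block 3866 and 2078, of which 3658 and 1720 were shared. The replicate block, whose numbers did not pair the samples, gave 4031 and 1939. Of 2864 values of the 125 named genes under the alternatives, 2816 kept direction and call, 48 in 16 genes lost the call and 0 reversed. Of 2052 list counts, 75 moved by over 1.5 times, in 28 counts. The cause was not tested. Each tissue has 3 arrays, no dyes were swapped, and only slide 3 holds both tissues. In all, 6455 genes were not well above background on any CH or PR array. Of the called genes, 518 choroidal and 130 photoreceptor genes were not well above background on any array of the lower tissue. There a bound is all the signal allows, and not even that where the higher tissue was as dim.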

Other observations

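Of the 1084 choroidal genes with more than 1 probe, 420 had all probes called the same way, as had 245 of the 477 such photoreceptor genes. For 12 genes, probes of the same gene were called in opposite directions between the CH and the PR. They were chosen after their values were seen, and 5 of them are described. Rgs9 is one, with the probe at chr11:109096382-109096441 (mm9) at -0.04, -0.05 and 0.09 in the CH against 1.53, 1.93 and 1.56 in the PR, opposite to its brightest probe. For Stx3, which codes for the syntaxin of ribbon synapses and of epithelia, the brightest probe (chr19:11850243-11850302) gave 1.31, 1.41 and 0.96 in the PR against -1.44, -1.27 and -1.31 in the CH. Its probe at chr19:11852038-11852097 gave -1.77, -1.74 and -1.96 in the PR against 0.23, 0.31 and 0.47 in the CH. The 2 probes carry different transcript accessions. Both were called, and neither overlapped between the tissues.

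Gnas, the gene of the stimulatory G protein alpha subunit with several alternative first exons, gave 3.04 at its brightest probe (chr2:174171933-174171992) and -1.71 at another (chr2:174163501-174163560). Dclk1, a microtubule associated kinase, gave 2.76 (chr3:55273441-55273500) and -1.72 (chr3:55340456-55340515). Sox4, a transcription factor gene, gave 3.37 and 2.83 at probes at chr13:29040826-29040885 and chr13:29042856-29042915, and -1.71 at chr13:29044482-29044541. In each case the CH and PR arrays did not overlap at any of the probes given, all of which were called. Whether the probes read different transcripts was not tested.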
